A study of Mus musculus with 30 samples.

Results

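The open chromatin of 36 T cell receptor signalling genes was followed across 13 groups of mouse T cells, using ATAC-seq, in which a transposase inserts sequencing adaptors into accessible DNA. A peak was counted to a gene when that gene was its nearest protein-coding gene body within 100 kb. By this rule 528 of 69316 peaks in a deposited table of 26 libraries belonged to the 36 genes, between 1 peak for Cd3g and 43 for Prkcq, with a median of 9.5 per gene. The 528 peaks comprised 29 at a promoter, 347 in a gene body and 152 outside the gene. The promoter set used covered 32 of the 36 genes. Malt1, Pag1, Sh2d1a and Cd6 had no start site in it, so their peaks could count only as gene body or outside. By role, 30 peaks lay at 4 receptor chains, 86 at 5 kinases, 77 at 6 adaptors, 129 at 8 effectors, 148 at 10 inhibitors and 58 at 3 surface proteins.

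The study asks how the transcription factors Foxp3 and BATF together set the regulatory landscape of effector regulatory T cells (Treg). All cells were sorted from lymph nodes and spleen, with 2 libraries per group, and every group except the virus-treated one was C57BL6/J. Treg carried human CD2 (hCD2) as a reporter of Foxp3 (Foxp3-IRES-hCD2). In the sorted subsets, effector Treg (eTreg) were CD4+hCD2+ cells low for CCR7, and central Treg (cTreg) were CD4+hCD2+ cells high for CCR7 and low for CD44. Their hCD2- counterparts were effector T cells (Teff, low for CCR7) and naive T cells (Tnaive, high for CCR7 and low for CD44). BATF knockout (BATFKO) Treg (Foxp3-IRES-hCD2.Batf-/-) were set against wild-type (WT) Treg, both CD4+hCD2+, and WT Treg against conventional T cells (Tconv, CD4+hCD2-). Foxp3R397W Treg, with an amino acid change in Foxp3 (genotype Foxp3R397W-IRES-hCD2/Foxp3-IRES-GFP), were set against Foxp3WT-IRES-hCD2/Foxp3-IRES-GFP Treg. Both were sorted as CD4+hCD2+GFP-, and such mice also hold Treg that use the GFP allele. The control's libraries are named only as Foxp3 wild-type Treg in the table, with no sample title of that name, and were read as the Foxp3R397W control, although the labels also hold a wild-type control of Foxp3KO Treg. The last 4 groups were double knockout (DKO) Treg (Foxp3KO-IRES-hCD2.Batf-/-), sorted as CD4+hCD2+ cells that were also GFP+Thy1.1+ and CD45.2+CD45.1-. By this genotype all of them lacked endogenous Foxp3 and BATF. They had received both Foxp3 and BATF retroviruses, the BATF virus, the Foxp3 virus or a mock virus, and their column names also carry the term vivo. The labels give no strain for the DKO cells.

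By the sample titles, the DKO libraries, the Foxp3R397W libraries and their control were omniATAC-seq, and the other groups ATAC-seq. Values are the authors' normalized peak scores. Peaks at housekeeping genes summed to 9725 to 13426 in DKO Treg with the mock virus and to 4205 to 4673 in WT Treg. Levels are therefore not on 1 footing between these sets, and each comparison stays within 1 of them. Each library's scores were whole reads multiplied by 1 factor, and reads in peaks ranged between 3716499 and 25462278 per library. No label says that the 2 libraries of a group came from separate animals, so the spread behind each p-value is that between these libraries and may be technical. Deviations from the group means correlated at 0.371 to 0.477 between same-numbered libraries of the DKO groups. The main fits hold no block for this. In bulk cells, a smaller share of cells with an open site and less opening per cell cannot be told apart. A second deposited table of 22 libraries held 18 of the same libraries, and 12 of these carried other group names there. For example, the libraries named eTreg here appear there as the Foxp3R397W control, and those named Teff and Tnaive here as Foxp3KO Treg and their control. The Tnaive and Teff libraries of the other table are 4 that the 26-library table does not hold. The names of the 26-library table are used throughout. On the Foxp3 peak at chromosome X, 7579463, the libraries named eTreg scored 76.4 and 59.7 and those named cTreg 75.5 and 67.2. On the same peak the libraries named Teff scored 7.84 and 6.85 and those named Tnaive 8.94 and 12.96, below all 4 Treg libraries. Every result on the sorted subsets and on Foxp3R397W Treg rests on these names, and 65 named changes reversed in the other table under its names. Of these, 20 were in eTreg minus cTreg, where the libraries are shared but named otherwise, and 45 in comparisons that also took those 4 libraries. A Batf peak at chromosome 12, 85687819, had 0 reads in both BATFKO libraries, against scores of 72.1 and 75.5 in WT Treg.

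T cell receptor signalling begins when the CD3 chains (Cd3e, Cd3d, Cd3g and the zeta chain Cd247) are phosphorylated by the Src-family kinases Lck and Fyn and recruit Zap70. Zap70 phosphorylates the adaptors Lat and Lcp2 (SLP-76), which gather Plcg1, Vav proteins, Grb2 and Sos1. Downstream, protein kinase C theta (Prkcq) signals through Bcl10 and Malt1 to NF-kB, and Rasgrp1 activates Ras. Ubiquitin ligases such as Cblb, phosphatases such as Ptpn22 and Ptpn6, and the diacylglycerol kinases Dgka and Dgkz restrain the pathway. Treg depend on receptor signals for their effector state, and BATF is a basic leucine zipper factor that pairs with Jun proteins at AP-1 and composite sites.

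The promoters of 4 member genes are shown whose largest called change in some comparison lay at the promoter. Dgka met the same rule and is not printed. Its promoter peak was lower with both viruses than with the mock virus (change -0.59, limma adjusted p = 0.015). Each run is the coding strand of 250 bases before and 50 after the RefSeq start site (GRCm38.p6), with the core letters GGAAGT of the ETS factor family, or their reverse complement, in capitals.
Cd3d, chr9:44981536-44981835, plus strand: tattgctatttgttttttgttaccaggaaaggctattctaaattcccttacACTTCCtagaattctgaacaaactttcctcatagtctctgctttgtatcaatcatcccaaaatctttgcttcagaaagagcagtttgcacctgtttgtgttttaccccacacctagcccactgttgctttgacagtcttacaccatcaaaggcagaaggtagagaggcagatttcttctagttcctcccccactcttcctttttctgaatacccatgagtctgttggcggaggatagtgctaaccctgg
Lck, chr4:129558323-129558622, minus strand: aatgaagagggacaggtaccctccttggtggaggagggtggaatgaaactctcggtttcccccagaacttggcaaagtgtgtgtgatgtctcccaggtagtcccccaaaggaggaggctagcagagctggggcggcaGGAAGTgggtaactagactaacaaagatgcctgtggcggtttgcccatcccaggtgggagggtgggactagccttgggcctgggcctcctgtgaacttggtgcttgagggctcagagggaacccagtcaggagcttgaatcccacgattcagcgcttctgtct
Grb2, chr11:115699485-115699784, minus strand: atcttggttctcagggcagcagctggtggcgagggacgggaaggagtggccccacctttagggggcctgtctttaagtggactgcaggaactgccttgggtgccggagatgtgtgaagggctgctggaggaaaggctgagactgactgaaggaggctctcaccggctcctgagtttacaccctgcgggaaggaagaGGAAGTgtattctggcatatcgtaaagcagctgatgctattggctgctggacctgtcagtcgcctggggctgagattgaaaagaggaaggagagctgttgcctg
Ubash3a, chr17:31207816-31208115, plus strand: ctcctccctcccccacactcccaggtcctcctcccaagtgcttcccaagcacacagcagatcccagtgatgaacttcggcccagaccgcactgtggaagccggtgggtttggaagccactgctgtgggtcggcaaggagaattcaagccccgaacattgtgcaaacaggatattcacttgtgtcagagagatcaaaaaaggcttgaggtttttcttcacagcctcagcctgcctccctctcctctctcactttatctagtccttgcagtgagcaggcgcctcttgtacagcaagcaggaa
The runs for Cd3d, Lck and Grb2 each hold 1 copy and that for Ubash3a none. The Dgka run, not printed, holds no copy either. GGAAGT was searched on both strands after 4 other motifs had been tried. It occurred in 21 of 48 member promoters (43.8%) against 23.8% of 32817 promoters of the same length. The 21 belong to 16 genes, since a gene can have several start sites, so they are not independent. Promoters with the same coordinates were counted once among the 32817 but not among the 48, and the difference was not tested. The 4 other motifs included TGANTCA (AP-1), in 2.08% of member promoters and 7.81% of all, and TGTTTAC (forkhead), in 2.08% and 3.65%. CCGGAAG (ETS, overlapping the core letters) stood in 2.08% and 8.86%, and TGTGGTT (Runx) in 6.25% and 5.27%. None of these 4 occurred in the promoters shown. A match is a string of letters and not a shown binding site.

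In eTreg relative to cTreg, more peaks of the 36 genes were lower than higher. Gained and lost, as used below, mean called higher and called lower between sorted groups. Of 528 peaks, 83 were higher and 141 lower, and among all 69316 peaks 37.1% were called, 19.7% higher and 17.4% lower. The median mean score was 74.99 for the member peaks and 48.6 for all peaks. The all-peak shares, here and below, were not matched for this difference in strength. A peak was called at a Benjamini-Hochberg adjusted p under 0.05 over all peaks in limma on log2(score + 1), and changes below are on that scale. All 224 called member peaks of this comparison were without overlap between the 2 groups. The largest changes named here and below were also picked among peaks without overlap. Separation of the groups at them follows from that choice and is no added support. The members' median change was -0.17 and that of all peaks 0.03. By gene the directions were closer. Of the 36 genes, 33 had a called peak, 25 had a higher one and 28 a lower one, and 20 had both. Lower calls were most numerous at Prkcq (17), Cblb (16) and Tec (11), and higher calls at Fyn (18). Only higher calls were seen at Bcl10, Malt1, Zap70, Grb2 and Plcg1, and only lower calls at Cd3d, Cd3e, Txk, Lat, Sos1, Vav1, Dgka and Dgkz. No peak of Cd3g, Lck or Ptpn6 was called. Promoters moved least, with 0 higher and 4 lower of 29 and a median absolute change of 0.22. Gene-body peaks had 59 higher and 96 lower of 347 and a median absolute change of 0.64.

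**Figure D1:**
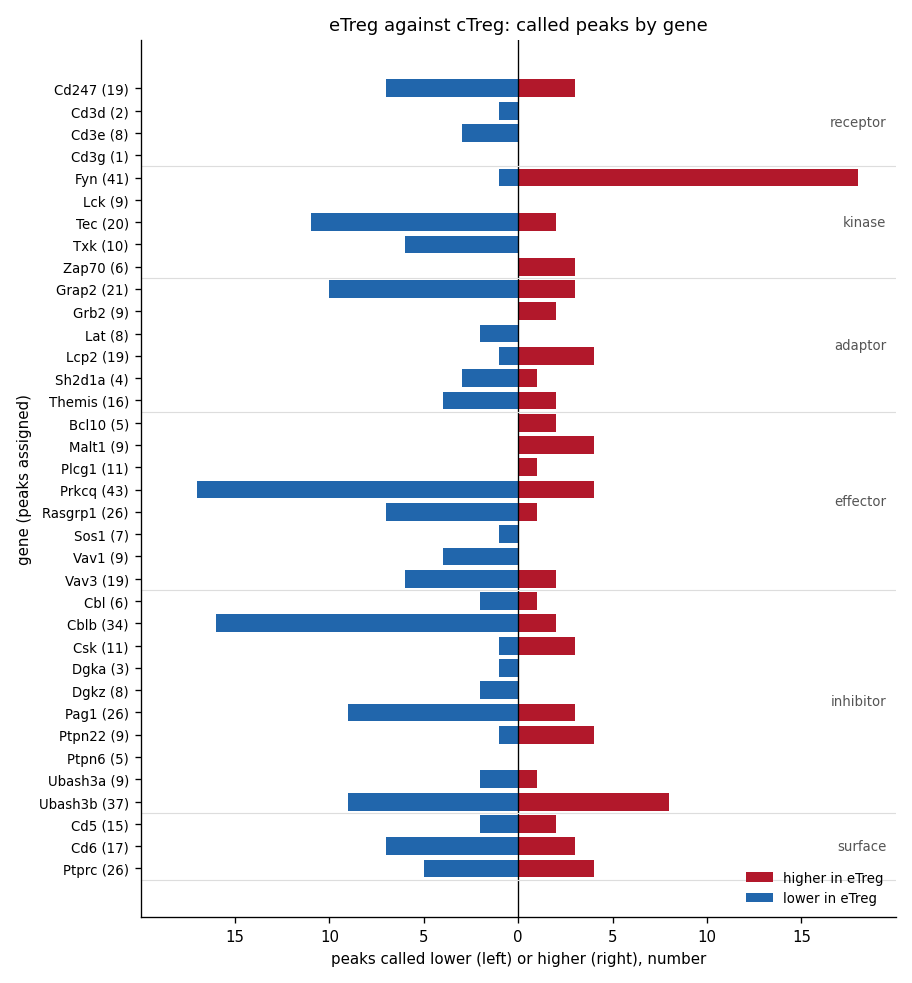
Called peaks per gene in eTreg minus cTreg, with genes grouped by role and ordered from the receptor chains downward. Bars to the right count higher peaks and bars to the left lower peaks. Fyn stands out to the right with 18 higher and 1 lower of 41, and Prkcq with 4 higher and 17 lower of 43 and Cblb with 2 higher and 16 lower of 34 stand out to the left.

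Of the receptor chains' 30 peaks, 3 were higher and 11 lower. In the gene body of Cd247, which encodes the zeta chain, a peak at chromosome 1, 165810603, scored 27.7 and 21.1 in eTreg and 96.9 and 101.4 in cTreg, a change of -1.99 (SE 0.27, limma adjusted p = 1.04e-06). The Cd3d promoter peak scored 75.3 and 78.4 in eTreg against 140 and 121 in cTreg, a change of -0.75 (SE 0.22, limma adjusted p = 0.0076). Both eTreg libraries were lower than both cTreg libraries at either site.

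The kinases were split. Fyn, a Src-family kinase, gained 18 peaks and lost 1. Tec and Txk, kinases of the Tec family, went the other way, with 2 higher and 11 lower of 20 peaks at Tec and 0 higher and 6 lower of 10 at Txk. The Fyn peak with the largest gain, at chromosome 10, 39458739, in the gene body, scored 100.8 and 105 in eTreg and 10.7 and 20.9 in cTreg, a change of 2.70 (SE 0.30, limma adjusted p = 2.9e-08). A Zap70 gene-body peak at chromosome 1, 36768782, scored 151 and 138 in eTreg and 13.3 and 18.7 in cTreg, a change of 3.11 (SE 0.39, limma adjusted p = 3.2e-07). In both, the lower eTreg library lay several times above the higher cTreg library. In the Tec gene body at chromosome 5, 72763579, scores were 7.76 and 17.6 in eTreg and 144 and 168 in cTreg, a change of -3.62 (SE 0.27, limma adjusted p = 2.6e-11). At Txk, a peak at chromosome 5, 72746465, scored 32.1 and 25.7 in eTreg and 187 and 154 in cTreg, a change of -2.52 (SE 0.22, limma adjusted p = 4.2e-10). The groups were apart at both. None of the 9 peaks of Lck, the kinase that starts the cascade, was called.

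Adaptors had 12 higher and 20 lower of 77 peaks, 10 of the lower ones at Grap2 (Gads), which links SLP-76 to Lat. At Lcp2, which encodes SLP-76, a peak beyond the 3' side of the gene at chromosome 11, 34101834, scored 114 and 115 in eTreg and 15.1 and 20.9 in cTreg, a change of 2.62 (SE 0.34, limma adjusted p = 4.7e-07). Effectors had 14 higher and 35 lower of 129, of which Prkcq supplied 17 lower. A Prkcq gene-body peak at chromosome 2, 11259353, scored 9.97 and 11.7 in eTreg and 87.1 and 76.0 in cTreg, a change of -2.80 (SE 0.31, limma adjusted p = 2.4e-08). Bcl10 and Malt1, which act below Prkcq, went the other way. The Bcl10 peak 7205 bp before the start site, at chromosome 3, 145916857 to 145917257, scored 300.2 and 385 in eTreg and 89.8 and 82.7 in cTreg, a change of 1.97 (SE 0.25, limma adjusted p = 3.8e-07). The Malt1 peak 211 bp outside the gene body scored 288 and 236 in eTreg and 60.4 and 43.0 in cTreg, a change of 2.33 (SE 0.28, limma adjusted p = 1.2e-07). At neither did the groups overlap. Vav3, a guanine nucleotide exchange factor, held sites of both kinds. One 46717 bp outside the gene scored 228 and 262 in eTreg and 10.7 and 15.4 in cTreg (change 4.15). One 16734 bp before the start site scored 51.0 and 59.7 in eTreg and 183 and 230 in cTreg (change -1.88).

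Among the inhibitors, 22 peaks were higher and 43 lower of 148. The Ptpn22 gene-body peak at chromosome 3, 103907598 to 103907998, scored 371 and 277 in eTreg and 3.55 and 12.1 in cTreg. Ptpn22 encodes a phosphatase that acts on Lck and Zap70, and the change of 5.38 (SE 0.37, limma adjusted p = 4.1e-12) was the largest rise among the named members. Cblb, the ubiquitin ligase, lost 16 peaks and gained 2. Its peak 24346 bp before the start site, at chromosome 16, 52007003 to 52007403, scored 17.7 and 23.4 in eTreg and 157 and 149 in cTreg, a change of -2.85 (SE 0.26, limma adjusted p = 1.1e-09). Its gene-body peak at chromosome 16, 52107859 to 52108259, scored 243 and 215 in eTreg and 26.7 and 30.9 in cTreg, a change of 2.95 (SE 0.34, limma adjusted p = 4.4e-08). A single inhibitor gene thus held strong sites of either direction. Pag1, an adaptor that anchors the Lck-inhibiting kinase Csk, had 3 higher and 9 lower peaks, and Ubash3b (Sts-1), a phosphatase, 8 higher and 9 lower of 37. The surface proteins had 9 higher and 14 lower of 58. At Ptprc (CD45), a phosphatase that primes Lck, a peak 23247 bp outside the gene scored 161 and 163 in eTreg and 21.3 and 19.84 in cTreg (change 2.91). Another, 13032 bp before the start site, scored 14.4 and 19.9 in eTreg and 62.2 and 74.9 in cTreg (change -1.95).

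At each gene's strongest peak, chosen by its mean score over all 26 libraries, the levels moved less. These 36 peaks lay at promoters for 14 genes, in gene bodies for 16 and outside for 6, with mean scores between 65.8 and 2002. Those of Malt1, Pag1, Sh2d1a and Cd6 could not count as promoter peaks, for want of a start site. In eTreg against cTreg, 1 was called higher, a peak 24611 bp outside Cd5, an inhibitory surface receptor (change 0.69). It was counted to Cd5 by distance alone. The 9 called lower were led by Cbl (-1.47), Cd6 (-0.99), Txk (-0.78) and Dgka (-0.70).

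Other cell types' markers also moved between eTreg and cTreg. Peaks at 5 of 8 B cell genes summed to 1164 to 1199 in eTreg against 677 to 803 in cTreg, with 10 of 19 called higher and 3 lower. Those at 6 of 9 myeloid genes summed to 1063 to 1128 in eTreg against 612 to 616 in cTreg, with 7 of 22 called higher and 3 lower. Those at 8 CD8 and NK cell genes summed to 2273 to 2312 in eTreg against 3528 to 3696 in cTreg, with 3 of 37 higher and 20 lower. Naive gene peaks summed to 9056 to 9185 in eTreg against 16242 to 17621 in cTreg, with 3 of 115 higher and 79 lower. Housekeeping genes summed to 5148 in both eTreg libraries against 5416 to 5549 in cTreg, with 1 of 22 called higher and 2 lower. The part of other cells in the members' changes was not tested.

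Conventional T cells, too, had more lower than higher member peaks in the effector state. In Teff relative to Tnaive, 102 member peaks were higher and 140 lower, against 40.3% of all peaks called, 20.7% higher and 19.6% lower. The 2 comparisons share no library. Of the member peaks higher in eTreg, 58 (69.9%) were also higher in Teff, which is 56.9% of those higher in Teff. Of the lower ones, 100 (70.9%, or 71.4% of those lower in Teff) were shared, and 1 peak was called in opposite directions. The same overlap among all peaks was not counted, here or for the overlaps below. None of them is therefore shown to be particular to the members. Fyn again gained, with 16 higher and 2 lower, and Prkcq (5 higher, 18 lower), Tec (2 and 13) and Cblb (3 and 12) lost sites. The Ptpn22 gene-body peak held 218 and 153 reads in Teff against 0 and 1 read in Tnaive, scores of 190 and 150 against 0 and 1.30. The ratio of reads per unit of depth was 266, with an exact 95% interval of 47.4 to 1.05e+04 for counting error only, while the fitted change of 6.81 depends on the added 1. The Tec peak at 72763579 scored 16.5 and 14.7 in Teff and 225 and 273 in Tnaive, a change of -3.91 (limma adjusted p = 2.1e-12). B cell marker peaks summed to 711 to 744 in Teff against 594 to 619 in Tnaive, and CD8 and NK marker peaks to 2756 to 2775 in Teff against 5029 to 5404 in Tnaive.

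The difference between both effector steps was tested directly, as eTreg minus cTreg minus the quantity Teff minus Tnaive. It was called at 18 member peaks, 5 of them positive and 13 negative, against 3.91% of all peaks (1.18% positive, 2.72% negative). The count without cTreg library 2 was 10, without Teff library 1 it was 9 and without Teff library 2 it was 11. Under quantile scaling the split was 5 positive and 31 negative, by edgeR on recovered reads 2 positive and 22 negative, and with these groups fitted alone 5 positive and 25 negative. The named peaks differed in how they came to be called, as their levels show. At Bcl10, the peak 7205 bp before the start site scored 307 and 296 in Teff and 193 and 210 in Tnaive, beside the eTreg and cTreg values above. The cTreg libraries stood apart as the low ones, and the difference of steps was 1.39 (SE 0.36, limma adjusted p = 0.023), a call kept in 8 of 14 settings and lost on leaving out any library but eTreg library 1 or Tnaive library 1. At Lcp2, a peak 10421 bp before the start site scored 229 and 222 in the eTreg libraries, 51.5 and 52.9 in cTreg, 111 and 79.2 in Teff and 6.39 and 3.89 in Tnaive (difference -1.89, limma adjusted p = 0.0026). It rose in both steps, and Tnaive had the lowest scores. In the gene body of Cd6, a surface receptor that modulates signalling, a peak at chromosome 19, 10815820, scored 83.1 in both eTreg libraries, 39.1 and 25.4 in cTreg, 161 and 159 in Teff and 15.3 and 5.18 in Tnaive (difference -2.63, limma adjusted p = 0.0024). At Cblb, a gene-body peak at chromosome 16, 52155097, scored 58.7 and 55.0 in the eTreg libraries, 221 and 165 in cTreg, 37.4 and 38.2 in Teff and 34.5 and 10.4 in Tnaive (difference -2.68, limma adjusted p = 0.0019). There the cTreg libraries were the high ones, and this is the 1 peak called in opposite directions in the 2 steps.

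**Figure D2:**
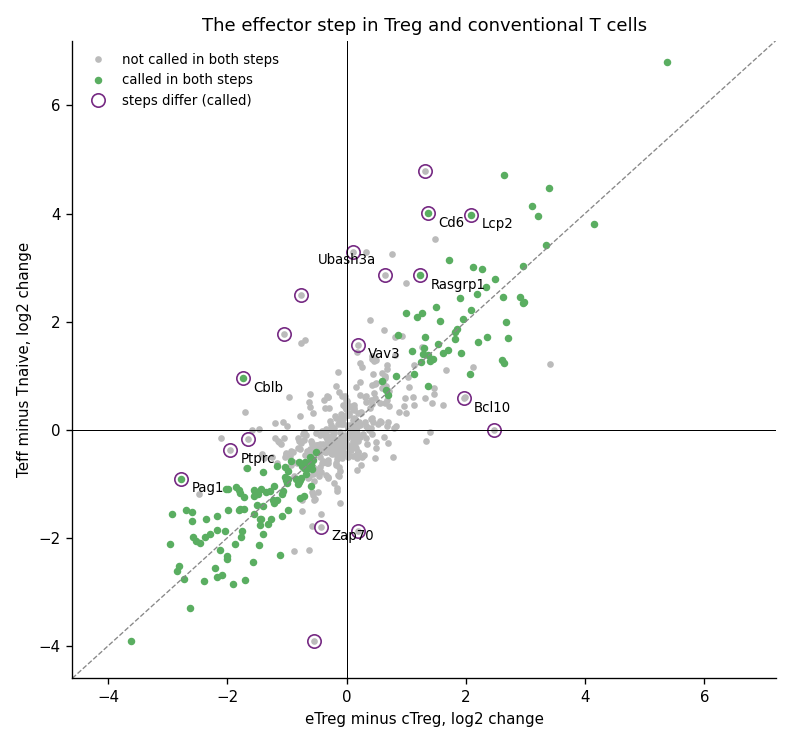
Change in Teff minus Tnaive on the vertical axis against change in eTreg minus cTreg on the horizontal axis, both on the log2(score + 1) scale, for the 528 member peaks. Green points were called in both comparisons, 1 of them in opposite directions. The 18 ringed points, whose steps differed, lie off the dashed diagonal of equal change, 13 above and 5 below.

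In cTreg relative to Tnaive, 40 member peaks were higher and 42 lower, against 16.6% of all peaks called (8.80% higher, 7.82% lower). The count was 54 without cTreg library 1, 52 without cTreg library 2 and 45 without Tnaive library 2, and with the groups of this contrast fitted alone it was 39 higher and 78 lower. The Cblb gene-body peak at 52155097 was higher in cTreg by 3.26 (limma adjusted p = 9.5e-08), and the Lcp2 peak 10421 bp before the start site by 3.15 (limma adjusted p = 4.2e-10). In eTreg relative to Teff, 29 were higher and 76 lower, against 17.5% of all peaks called (8.40% higher, 9.07% lower). Lower calls came from 28 genes and higher ones from 12, and no gene had higher calls alone. The Cd3e peak at chromosome 9, 44998129, scored 34.4 and 32.8 in eTreg and 88.0 and 91.96 in Teff (change -1.40, limma adjusted p = 0.00032). The Lck peak at chromosome 4, 129571549, scored 58.7 and 44.5 in eTreg and 119 and 126 in Teff (change -1.25, limma adjusted p = 0.00029). At both sites the eTreg libraries were the lower ones. The count fell to 56 without eTreg library 1, 62 without eTreg library 2, 61 without Teff library 1 and 54 without Teff library 2, and it was 60 higher and 112 lower with these groups fitted alone.

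In WT Treg relative to Tconv, 52 member peaks were higher and 72 lower, against 20.04% of all peaks (10.1% higher, 9.92% lower). The Cblb peak 21933 bp before the start site, at chromosome 16, 52009416, scored 23.2 and 17.4 in WT Treg and 230 and 255 in Tconv, a change of -3.53 (SE 0.50, limma adjusted p = 5.8e-06). The Lcp2 peak at 34101834 scored 75.8 and 55.1 in WT Treg and 9.80 and 9.09 in Tconv, a change of 2.65 (SE 0.34, limma adjusted p = 1.3e-06). The groups were apart at both, and the direction was the same in eTreg against Teff at 20 of the higher peaks (38.5%, or 69.0% of those higher in eTreg) and 33 of the lower ones (45.8%, or 43.4%). The count was 64 without WT Treg library 1, 77 without WT Treg library 2, 76 without Tconv library 1 and 81 without Tconv library 2. B cell marker peaks summed to 915 to 1108 in WT Treg against 688 to 738 in Tconv, with 6 of 19 called higher and 0 lower. CD8 and NK marker peaks summed to 2359 to 2468 in WT Treg against 3679 to 3821 in Tconv, with 1 of 37 higher and 8 lower. Myeloid marker peaks summed to 672 to 727 in WT Treg against 736 to 793 in Tconv, with 2 of 22 higher and 3 lower. Naive gene peaks summed to 11321 to 13011 in WT Treg against 15676 to 15864 in Tconv, with 3 of 115 higher and 31 lower. The part of these cells in the members' changes was not tested.

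In BATFKO relative to WT Treg, 0 of 528 member peaks were higher and 7 lower, close to the background of 1.49% of all peaks called (0.0620% higher, 1.43% lower). At an unadjusted p under 0.05, 16 were higher and 32 lower by limma. The share of all peaks at that threshold was not counted, here or for the unadjusted counts below. By edgeR on recovered reads, 0 were called higher. The lower peaks lay at Bcl10, Malt1, Fyn (2 peaks), Ptpn22, Cblb and Prkcq, and 3 of them were deep losses. The Malt1 peak 211 bp outside the gene scored 15.5 and 22.7 in BATFKO and 141 and 105 in WT Treg, a change of -2.63 (SE 0.28, limma adjusted p = 4.2e-07). The Bcl10 peak 7205 bp before the start site scored 31 and 25.3 in BATFKO and 202 and 136 in WT Treg, a change of -2.52 (SE 0.25, limma adjusted p = 1.4e-07). The Fyn gene-body peak at chromosome 10, 39479368 to 39479768, scored 21.0 and 17.7 in BATFKO and 125 and 86.8 in WT Treg, a change of -2.37 (SE 0.22, limma adjusted p = 5.2e-08). Bcl10 and Malt1 encode partners of 1 complex that carries the receptor signal to NF-kB. The Ptpn22 gene-body peak was lower by less, 35.98 and 30.3 in BATFKO against 120 and 99.0 in WT Treg (change -1.69, limma adjusted p = 0.0091), and the Cblb gene-body peak at 52107859 had 34.9 and 26.5 in BATFKO against 95.3 and 64.3 in WT Treg (change -1.34, limma adjusted p = 0.032). No group overlapped another at any of them. The Ptpn22 call was kept in 8 of 10 settings and lost without WT Treg library 1 (limma adjusted p = 0.21) or BATFKO library 2 (0.13). The Cblb call was kept in 7 of 10 and lost without WT Treg library 1 (limma adjusted p = 0.61), BATFKO library 1 (0.079) or BATFKO library 2 (0.33). None of the 36 strongest peaks was called. The count was 3 without WT Treg library 1 and 4 without BATFKO library 2, whereas a pseudocount of 5 gave 11 peaks and edgeR on recovered reads 13, all of them lower in BATFKO, and quantile scaling gave 1 higher and 18 lower. Of the 7 lower peaks, 6 (85.7%, or 7.23% of the longer list) were among those higher in eTreg.

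Most of these sites were more open when BATF was supplied. In DKO Treg given the BATF virus rather than the mock virus, 20 member peaks were higher and 2 lower, against 3.49% of all peaks (3.20% higher, 0.291% lower). Of the 7 peaks lower in BATFKO Treg, 6 (85.7%, or 30.0% of the peaks higher with the BATF virus) were among them. The Malt1 peak scored 296 and 343 with the BATF virus and 51.7 and 41.1 with the mock virus, a change of 2.76 (SE 0.28, limma adjusted p = 9.7e-08). The Bcl10 peak scored 209 and 273 with the BATF virus and 36.9 and 50.8 with the mock virus, a change of 2.44 (SE 0.25, limma adjusted p = 1.5e-07). The Fyn peak at 39479368 scored 249 and 232 with the BATF virus and 48.5 and 66.5 with the mock virus, a change of 2.06 (SE 0.22, limma adjusted p = 3.0e-07). Both BATF libraries were above both mock libraries at all 3, and the Ptpn22 (change 1.93) and Cblb (change 1.29) gene-body peaks were called too. The Ptpn22 call was kept in 11 of 12 settings and lost without mock library 2. The Cblb call was kept in 7 of 12 and lost without mock library 2, BATF virus library 1 or BATF virus library 2, under quantile scaling and with these groups fitted alone (limma adjusted p up to 0.32). With the Foxp3 virus alone, the Malt1 peak scored 37.6 and 32.2, the Bcl10 peak 31.2 and 36.8 and the Fyn peak 39.8 and 46.1, each below both mock libraries, and none of the 3 was called. The lower calls with the BATF virus were at Ubash3b, where a gene-body peak scored 61.9 and 60.5 with the BATF virus against 125 and 130.01 with the mock virus (change -1.05), and at Cblb. This Ubash3b call was lost on leaving out any of the 4 libraries and under quantile scaling. The member count was 12 without BATF virus library 1, 9 without BATF virus library 2 or without mock library 2, and 9 under quantile scaling.

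**Figure D3:**
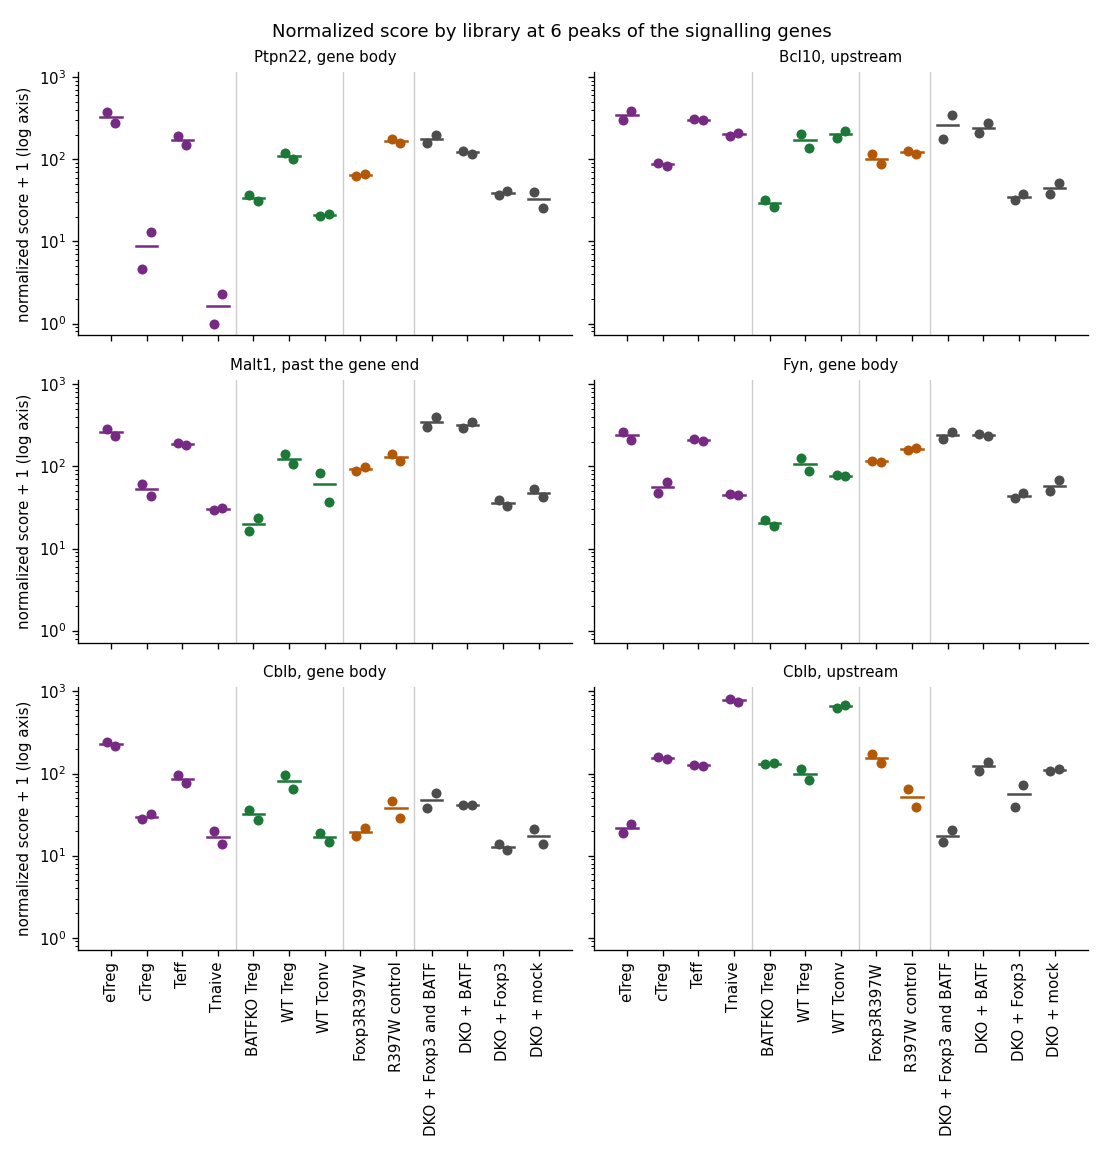
Normalized score + 1 on a log axis in each library at 6 member peaks of Ptpn22, Bcl10, Malt1, Fyn and Cblb; points are libraries and lines group means. At the Malt1, Bcl10 and Fyn peaks the BATFKO, Foxp3 virus and mock virus libraries lie low and the eTreg, BATF virus and both-virus libraries high, whereas the upstream Cblb peak is lowest in eTreg and with both viruses and highest in Tnaive and Tconv. The virus-treated libraries were omniATAC-seq and the others named here ATAC-seq, and heights between these sets were not tested.

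In DKO Treg given the Foxp3 virus rather than the mock virus, 8 member peaks were higher and 5 lower, against 1.82% of all peaks (1.01% higher, 0.814% lower). The higher ones included a Tec gene-body peak at chromosome 5, 72817654, with 210 and 281 with the Foxp3 virus and 109 and 152 with the mock virus (change 0.91, limma adjusted p = 0.023). A Vav3 gene-body peak at chromosome 3, 109371573, scored 31.2 and 21.5 with the Foxp3 virus and 82.2 and 66.5 with the mock virus (change -1.48, limma adjusted p = 0.0032). The promoter peak of Themis, an adaptor that regulates Lck signalling in thymocytes, scored 272 and 365 with the Foxp3 virus and 475 and 664 with the mock virus (change -0.83, limma adjusted p = 0.015). The groups did not overlap at these peaks. A block on the library number over the DKO libraries alone, chosen after seeing the data, gave more calls, as listed at the end. Without it, the split was 1 higher and 4 lower under quantile scaling and 5 and 5 among peaks with a mean score of at least 20. The count was 7 without mock library 1, 5 without mock library 2 and 5 without Foxp3 virus library 2, and 3 with these groups fitted alone. The Tec and Themis calls were each kept in 9 of 12 settings and the Vav3 call in 11. The Tec call was lost without mock library 1 or Foxp3 virus library 2, that of Themis without Foxp3 virus library 1 or mock library 2, and that of Vav3 without Foxp3 virus library 2.

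Both viruses together moved many more sites, chiefly downward. Relative to the mock virus, 59 member peaks were higher and 118 lower with both viruses, against 23.3% of all peaks (12.9% higher, 10.5% lower), with a median change of -0.23 over the members and -0.04 over all peaks. Effectors had 10 higher and 39 lower of 129, inhibitors 15 and 39 of 148, kinases 18 and 17 of 86, adaptors 12 and 9 of 77, surface proteins 3 and 11 of 58 and receptor chains 1 and 3 of 30. Prkcq had 0 higher and 19 lower of 43 peaks and Cblb 2 higher and 19 lower of 34, and Fyn had 10 higher and 6 lower. Of the 118 lower peaks, 68 (57.6%, or 48.2% of those lower in eTreg) were also lower in eTreg than in cTreg. Of the 59 higher ones, 33 (55.9%, or 39.8%) were also higher there. Without mock library 2 the count was 105.

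Single peaks show both directions. The Malt1 peak scored 298 and 394 with both viruses against 51.7 and 41.1 with the mock virus (change 2.87, limma adjusted p = 8.1e-09), much as with the BATF virus alone. At Plcg1, the phospholipase that makes inositol trisphosphate and diacylglycerol, a gene-body peak at chromosome 2, 160746620, scored 16.5 and 28.8 with both viruses and 71.7 and 102 with the mock virus (change -1.92, limma adjusted p = 1.6e-06). The Vav3 peak at 109371573 scored 12.6 and 13.8 with both viruses and 82.2 and 66.5 with the mock virus (change -2.40, limma adjusted p = 6.8e-08). At the Rasgrp1 peak 9934 bp before the start site, scores were 38.8 and 48.4 with both viruses and 160 and 129 with the mock virus (change -1.71, limma adjusted p = 6.6e-06). At none of these did the groups overlap. The Cblb peak 21933 bp before the start site held 0 and 2 reads with both viruses against 16 and 15 with the mock virus, a ratio of mock to both of 14.9 with an exact 95% interval of 3.80 to 129 for counting error only.

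Promoter peaks were among the lower ones with both viruses, 8 of 29, with 1 higher. The Lck promoter peak scored 288 and 400 with both viruses and 572 and 960 with the mock virus (change -1.12, SE 0.23, limma adjusted p = 0.00042). The Ubash3a promoter peak scored 266 and 267 with both viruses and 424 and 527 with the mock virus (change -0.82, limma adjusted p = 0.0013). The Grb2 promoter peak scored 181 and 203 with both viruses and 264 and 370 with the mock virus (change -0.70, limma adjusted p = 0.0074), and that of Cd3d 198 and 200.4 with both viruses and 242 and 387 with the mock virus (change -0.62, limma adjusted p = 0.041). These are the 4 promoters printed above, and the 2 mock libraries differ more from each other than the 2 libraries with both viruses at Lck, Ubash3a, Grb2 and Cd3d. Of these, Ubash3a (86.4 and 112 in eTreg, 196 and 182 in cTreg, change -0.93, limma adjusted p = 0.00019) and Cd3d were also lower in eTreg. Lck (192 and 194 in eTreg, 314 and 237 in cTreg, change -0.50, limma adjusted p = 0.091) and Grb2 (157 and 151 in eTreg, 225 and 195 in cTreg, change -0.44, limma adjusted p = 0.075) did not pass. Housekeeping peaks summed to 8746 to 11701 with both viruses against 9725 to 13426 with the mock virus, 1 of 22 called higher and 0 lower. Myeloid marker peaks summed to 1924 to 2229 with both viruses against 958 to 1160 with the mock virus, with 10 of 22 called higher and 1 lower. B cell marker peaks summed to 1132 to 1259 with both viruses against 638 to 656 with the mock virus, with 9 of 19 higher and 0 lower. Other lists went down. Naive gene peaks summed to 12948 to 16137 with both viruses against 21843 to 29557 with the mock virus, with 5 of 115 higher and 62 lower. CD8 and NK marker peaks summed to 3117 to 3139 with both viruses against 3799 to 4086 with the mock virus, with 1 of 37 higher and 7 lower. The part of other cells in the members' changes was not tested.

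Set against each single virus, both viruses again lowered more member peaks than they raised. Against the Foxp3 virus 43 were higher and 85 lower (all peaks 18.1%, 10.6% higher and 7.54% lower), with 83 called in all without Foxp3 virus library 2 and a split of 32 and 41 when these groups were fitted alone. Against the BATF virus 23 were higher and 91 lower (all peaks 14.1%, 7.08% higher and 7.01% lower), with 72 without both-virus library 1 and 60 without BATF virus library 2. These comparisons and those with the mock virus share libraries. Whether the 2 viruses together departed from the sum of their single effects on the log2 scale was tested as an interaction. It was called at 6 member peaks, 0 positive and 6 negative, against 1.09% of all peaks (0.586% positive, 0.506% negative). At an unadjusted p under 0.05, 14 were positive and 76 negative by limma, and 0 were called positive by edgeR. The Cblb peak 24346 bp before the start site scored 13.6 and 19.6 with both viruses, 108 and 136 with the BATF virus, 37.6 and 72.1 with the Foxp3 virus and 107 and 111 with the mock virus. The BATF virus alone left it near the mock level (change 0.15), the Foxp3 virus lowered it (change -1.05, limma adjusted p = 0.034), and both lowered it by more than the sum (interaction -1.77, SE 0.37, limma adjusted p = 0.019). A Ubash3b peak 23528 bp before the start site scored 8.74 and 19.6 with both viruses, 38.4 and 39.4 with the BATF virus, 35.5 and 50.6 with the Foxp3 virus and 25.3 and 28.4 with the mock virus (interaction -2.14, limma adjusted p = 0.024). It was lowest with both. The 6 calls rested on single libraries, with 3 without mock library 1, 2 without BATF virus library 1, 0 without Foxp3 virus library 2 or BATF virus library 2, and 11 without Foxp3 virus library 1. The count was 2 positive and 9 negative with a pseudocount of 5, 3 under quantile scaling and 0 with these groups fitted alone. A block on the library number over the DKO libraries alone, chosen after seeing the data, gave more interaction calls, as listed at the end. At the unadjusted p under 0.05, limma gave 66 and 71 member peaks in the 2 fits without Foxp3 virus library 2 or BATF virus library 2.

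In Foxp3R397W Treg relative to their control, 8 member peaks were higher and 4 lower, against 2.63% of all peaks (0.776% higher, 1.85% lower). All 8 higher peaks (100%, or 6.78% of the longer list) were lower with both viruses in DKO Treg, and 7 (87.5%, or 4.96%) were lower in eTreg than in cTreg. The Cblb peak 24346 bp before the start site scored 173 and 135 in Foxp3R397W Treg and 63.4 and 38.1 in the control (change 1.61, SE 0.26, limma adjusted p = 0.00072). A Prkcq gene-body peak at chromosome 2, 11266345, scored 181 and 142 in Foxp3R397W Treg and 93.1 and 84.9 in the control (change 0.84, limma adjusted p = 0.036). The Ptpn22 gene-body peak scored 61.9 and 65.3 in Foxp3R397W Treg and 178 and 155 in the control (change -1.37, limma adjusted p = 0.037). The groups did not overlap at these 3. The count was 1 or 2 without any single library (1 without Foxp3R397W library 1, and 2 without Foxp3R397W library 2, control library 1 or control library 2), and 50 by edgeR or when these groups were fitted alone, so its size is poorly fixed. The Prkcq and Ptpn22 calls were lost on leaving out any of the 4 libraries.

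**Figure D4:**
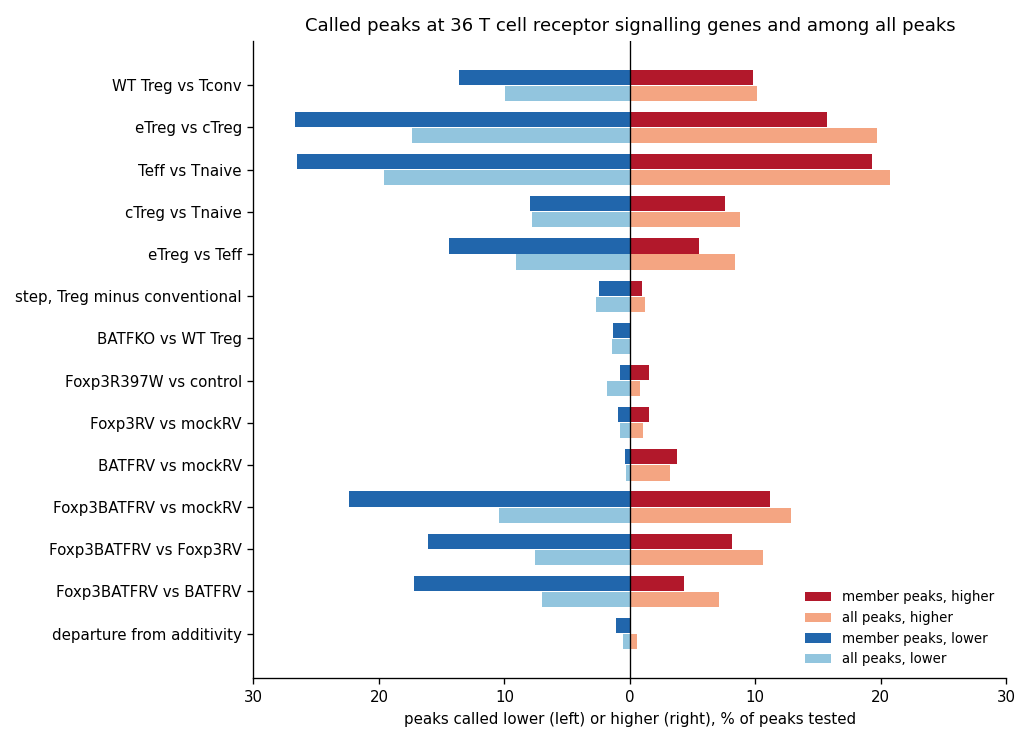
Percentage of peaks called higher (right) and lower (left) in each of the 14 comparisons, for the 528 member peaks beside all 69316 peaks. The member bars lie below the all-peak bars on the higher side in eTreg minus cTreg (15.7% against 19.7%) and beyond them on the lower side (26.7% against 17.4%), and the both-virus comparison shows the same order (lower 22.3% against 10.5%).

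Beyond the 36 genes, 50 other genes of the pathway held 591 peaks, of which 115 were higher and 133 lower in eTreg than in cTreg (19.46% and 22.5%, beside 19.7% and 17.4% of all peaks). In Teff against Tnaive more were higher than lower, 155 and 122 (26.2% and 20.6%, beside 20.7% and 19.6%), with a median change of 0.07, and in WT Treg against Tconv 94 and 79 (15.9% and 13.4%, beside 10.1% and 9.92%). The member peaks had more lower than higher calls in these comparisons, and the difference between the lists was not tested. At Prkca, which encodes protein kinase C alpha, a gene-body peak scored 168 and 139 in eTreg and 1.78 and 5.51 in cTreg (change 5.18, limma adjusted p = 1.9e-09). At Cd28, the costimulatory receptor, a peak 32251 bp away scored 7.76 and 7.02 in eTreg and 137 and 148 in cTreg (change -4.09, limma adjusted p = 3.5e-08). Both were apart between the groups. In BATFKO relative to WT Treg 0 of the 591 were higher and 9 lower (1.52%, beside 1.43% of all peaks). Among these was a gene-body peak of Stim1, the calcium sensor of the endoplasmic reticulum, with 6.64 and 10.1 in BATFKO and 84.3 and 78.6 in WT Treg (change -3.16, limma adjusted p = 5.5e-06). Another was an Itpr1 gene-body peak at an inositol trisphosphate receptor gene, with 6.64 and 3.79 in BATFKO and 110 and 77.6 in WT Treg (change -3.95, limma adjusted p = 0.00016). With the BATF virus 30 of the 591 were higher and 5 lower than with the mock virus (5.08% and 0.846%, beside 3.20% and 0.291%), and with both viruses 67 were higher and 85 lower (11.3% and 14.4%, beside 12.9% and 10.5%).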

How the data were processed

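ATAC-seq or omniATAC-seq libraries, per the labels, were represented by normalized peak scores, a signal that the authors deposited as a table of 69316 peaks in 26 libraries and a second table of 68597 peaks in 22 libraries. Coordinates are those of mm10. Per the submitters' processing notes, the tools were edgeR (3.38.4 and 3.36.0), DiffBind (3.4.11 and 3.0.15), MACS2 (2.2.7.1) and Bowtie2 (2.4.1), whose roles and parameters the sources used here do not give. Within each library all scores were whole reads times 1 factor, within 0.02 reads for 100% of values. Reads in peaks, 3716499 to 25462278 per library, limit the precision at low peaks, and intervals cover counting error only.

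The members and gene lists were chosen with earlier results of these data known. Peaks were assigned with bedtools 2.31.1 to the nearest protein-coding gene body within 100 kb, and 2 member peaks tied with another gene. Genes were placed with the RefSeq gene table of GRCm38.p6. Changes were fitted with limma 3.58.1 (R 4.3.3) on log2(score + 1), all 26 libraries in 1 fit with a trend and robust variances, no filter and no replicate block, with 13 residual degrees of freedom. P-values were two-sided and adjusted by Benjamini-Hochberg over 69316 peaks in each comparison. Named peaks were, per comparison and direction, the 10 largest called changes with 1 peak per gene, with a mean score above the median of all peaks and no overlap between groups, and each gene's strongest peak. The Fyn and Cblb peaks that recur between comparisons, the promoter peaks and the second Vav3, Cblb and Ubash3b sites were followed into other comparisons after their values were seen. Alternatives were a pseudocount of 5, a mean score of at least 20, quantile scaling, edgeR 4.0.16 on recovered reads, fits on the groups of a contrast alone, the replicate number as a block, leaving out each library, and the other table with its names and libraries. The fitting script was tested on simulated data. Python 3.11.15, pandas 2.3.3, numpy 2.4.6 and matplotlib 3.10.9 were used. Foxp3KO Treg and their control are names of the 22-library table only, given there to the libraries named Teff and Tnaive in the 26-library table, and no comparison under those names was analysed here.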

Additional observations from a re-analysis of the deposited data

Results flagged for a closer look

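At 10 named member peaks, eTreg minus cTreg and Teff minus Tnaive differed from each other by the interaction contrast in limma. The difference on the log2(score + 1) scale was positive at Bcl10 (1.39) and Zap70 (1.37). It was negative at Cblb (-2.68), Cd6 (-2.63), Ubash3a (-2.22), Lcp2 (-1.89), Pag1 (-1.87), Rasgrp1 (-1.62), Ptprc (-1.58) and Vav3 (-1.39). The call was kept under all 14 settings of the 26-library table at Cblb, Cd6, Ubash3a, Lcp2, Pag1 and Rasgrp1, under 9 at Ptprc, 8 at Vav3 and Bcl10 and 5 at Zap70.

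At 4 named member peaks the effect of both viruses in DKO Treg departed from the sum of the single effects, by the interaction contrast in limma. The departure was negative at Ubash3b (-2.14), Cblb (-1.77), Txk (-1.23) and Fyn (-1.09). Each of these calls was lost under some of the 16 settings tried.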

How the results depend on the processing

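With 2 libraries per group, the number of called member peaks depended on single libraries. Leaving out 1 library at a time gave 64 to 81 in WT Treg against Tconv, 174 to 179 in eTreg against cTreg, 185 to 192 in Teff against Tnaive, 45 to 62 in cTreg against Tnaive, 54 to 62 in eTreg against Teff, 9 to 16 for the difference of steps, 3 to 5 in BATFKO against WT Treg and 1 to 2 in Foxp3R397W Treg. In DKO Treg it gave 5 to 14 for the Foxp3 virus, 9 to 20 for the BATF virus and 105 to 155 for both viruses against mock, 83 to 114 and 60 to 85 for both against the Foxp3 and BATF virus, and 0 to 11 for the interaction. Low peaks carry few reads, which limits those changes.

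The cause of the following moves was not tested. A pseudocount of 5 gave 11 calls in BATFKO Treg and 11 for the interaction. Quantile scaling gave 36 for the difference of steps, 19 in BATFKO Treg, 5 for the Foxp3 virus, 9 for the BATF virus and 3 for the interaction. edgeR on recovered reads gave 13 in BATFKO and 50 in Foxp3R397W Treg. Fitting only the groups of a contrast gave 172 in eTreg against Teff, 30 for the difference of steps, 50 in Foxp3R397W Treg, 3 for the Foxp3 virus, 73 for both viruses against the Foxp3 virus and 0 for the interaction (limma, 64 at an unadjusted p under 0.05). No scaling moved the median of all peaks by over 0.1. Of 194 named pairs of peak and comparison, 134 kept their call under every setting of the 26-library table.

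Libraries of a group carry numbers, and with 2 pairs per comparison no label says that a number marks a shared animal or day. Deviations from the group means correlated at 0.371 to 0.477 between same-numbered DKO groups, and the block counts of 7 calls in BATFKO Treg, 132 in WT Treg against Tconv, 229 in eTreg against cTreg, 248 in Teff against Tnaive, 90 in cTreg against Tnaive, 111 in eTreg against Teff, 20 for the difference of steps, and 13, 24, 183, 134, 116 and 9 in the DKO comparisons were all within 1.5 times of the fits without it. Chosen after seeing the data, a block over the DKO libraries alone gave 23 for the Foxp3 virus and 18 for the interaction, and the same block in a fit of the 8 DKO libraries gave 28 for the Foxp3 virus, 35 for the BATF virus and 32 for the interaction. The labels number the Foxp3R397W libraries and their control differently. A block on the numbers in the table's column names, chosen after seeing the data, gave 13 calls (deviations correlated at 0.535).

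In the 22-library table under its names, member calls were 23 in eTreg against cTreg, 25 in Teff against Tnaive, 256 in Foxp3R397W Treg and 0 in cTreg against Tnaive, eTreg against Teff and the difference of steps, where limma gave 6, 8 and 1 at an unadjusted p under 0.05. Named changes reversed as follows. There, 12 shared libraries carry other names, and Tnaive and Teff are 4 libraries that the 26-library table does not hold, so names and libraries change together in the comparisons below other than eTreg minus cTreg. In eTreg minus cTreg they became Ptpn22 -1.41, Vav3 -1.49, Zap70 -0.82, Cblb -0.97, Ptprc -0.36, Fyn -0.59, Lcp2 -1.11, Malt1 -0.50, Bcl10 -0.29, Ubash3b -0.20, Tec 0.74, Cblb 1.59, Prkcq 0.60, Pag1 0.87, Ubash3b 0.41, Txk 0.48, Dgkz 0.39, Cd247 0.42, Ptprc 1.01 and Vav3 0.30. In Teff minus Tnaive they became Ptpn22 -1.74, Zap70 -0.82, Cd6 -0.52, Lcp2 -0.82, Vav3 -1.64, Fyn -0.74, Ubash3a -0.29, Rasgrp1 -0.54, Ptprc -0.95, Malt1 -0.58, Tec 0.68, Ubash3b 0.75, Pag1 0.89, Cblb 1.68, Prkcq 0.58, Txk 0.57, Cbl 0.29, Vav3 0.17, Dgkz 0.29 and Rasgrp1 0.93. In cTreg minus Tnaive they became Cblb -0.062, Ptpn22 -0.23, Ubash3b -0.11, Zap70 -0.011, Cd6 -0.042, Fyn -0.019, Lcp2 0.16, Ubash3b 0.24, Fyn 0.058, Rasgrp1 0.19, Ptpn6 0.13 and Txk 0.19. In eTreg minus Teff they became Lcp2 -0.26, Cblb -0.092, Tec -0.20, Ptprc 0.13, Pag1 0.13, Cd247 0.49, Lat 0.11, Lcp2 0.026 and Lck 0.075. For the difference of steps they became Zap70 -0.20, Cd6 0.073, Rasgrp1 0.17 and Ptprc 0.15.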
